A study of Mus musculus with 4 samples.

Results

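The genes described here build and run the DNA replication machinery of S phase. They were chosen by name from textbook roles: 40 genes were listed, 39 had a probe set on the array, and the array named 18193 genes in all. Chaf1a had no matched probe set and was not analysed here. Where a gene had several probe sets, the one brightest on average over the 4 arrays (mean log2 signal) stood for it, and all 39 representing probe sets passed the filter on low signal. The RNA came from the basal epidermis of E16.5 mouse embryos, whose viable single cells were sorted on α6 integrin and YFP, and was measured on expression arrays. The 2 cKO samples carried K14-Cre, the ROSA26 YFP reporter and a floxed allele of Srf on both chromosomes. The 2 het samples had 1 floxed and 1 wild-type Srf allele with the same Cre and reporter, per the design text, which calls them wild type. All 4 samples thus carried the reporter and K14-Cre, whose keratin 14 promoter is active in basal keratinocytes, and the controls lack neither Cre nor a floxed Srf allele. The deleted gene, Srf, encodes a transcription factor (serum response factor) of cytoskeletal and immediate early genes, and the title of the series places the comparison in embryonic epidermal differentiation. The titles carry a number that recurs in both groups: het_1210 and Ko_1210 share what is called the first number here, het_1261 and KO_1261 the second number. No label says what the numbers mark, or whether samples came from separate or pooled embryos, so the p-values measure only the spread between these arrays, which may be technical.

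The basal layer is the dividing compartment of the epidermis, and cells leave the cell cycle as they move outward and differentiate. In G1 the origin recognition complex, Cdc6 and Cdt1 load the ring of MCM helicase subunits onto origins, and geminin blocks Cdt1 once S phase has begun. Cdc45 and the GINS complex then activate the helicase, polymerase α with primase starts each strand, and replication factor C loads the PCNA clamp that holds polymerases δ and ε. Cyclin E with its kinase and the E2F transcription factors drive entry into S phase, and many replication genes carry E2F sites close to their start.

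That feature is visible in the sequences of the members. RefSeq promoter windows of GRCm38.p6, from 250 bases before to 50 after a start, were matched for 31 of the 39 genes (36 windows). The windows were searched on both strands for an E2F-type core of 8 letters, TTTCCCGC, TTTCGCGC, TTTGCCGC or TTTGGCGC. The 4 cores differ in their middle letters only. A core was found in 12 of the 36 windows, each of a different gene (33.3%), against 2.26% of all 32851 windows. The genes were Cdc6, Cdt1, Lig1, Mcm3, Mcm5, Mcm6, Mcm7, Orc1, Pola1, Pold1, Rfc3 and Uhrf1. In 8 of them at least 1 match lay before the start. Below, 7 such stretches from 6 genes show how the core sits in licensing, helicase, polymerase and clamp loader genes. Capitals mark the matched letters, overlapping matches run together, and each stretch is read 5′ to 3′ on the strand of its gene.
Cdc6, chr11:98907995-98908038, + strand: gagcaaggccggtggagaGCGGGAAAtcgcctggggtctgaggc
Orc1, chr4:108579409-108579452, + strand: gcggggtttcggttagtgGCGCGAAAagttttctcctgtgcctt
Mcm5, chr8:75109338-75109385, + strand: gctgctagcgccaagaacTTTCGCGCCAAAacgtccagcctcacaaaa
Mcm6, chr1:128359786-128359833, - strand: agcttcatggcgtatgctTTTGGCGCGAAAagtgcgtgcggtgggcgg
Mcm6, chr1:128359727-128359770, - strand: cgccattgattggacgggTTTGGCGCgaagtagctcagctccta
Pola1, chrX:93632268-93632311, - strand: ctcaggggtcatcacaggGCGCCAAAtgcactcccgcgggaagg
Rfc3, chr5:151651209-151651236, - strand: ggaagtgacgtcgcacgcTTTCGCGCtc
Mcm5 and the Mcm6 stretch farther from the start each hold a pair of overlapping cores that face opposite ways. The matches ended between 2 (Rfc3) and 141 (Mcm5) bases before the start in these stretches. The CArG box, the sequence that SRF binds, was matched in 1 of the 36 windows (Tyms), or 2.78%, against 1.63% of all windows. The CCAAT box (CCAAT or, on the other strand, ATTGG) was matched in 20 of 36 windows, or 55.6%, against 37.4%. A match of letters is not a measured binding site. The 12 genes with a core had a median difference between cKO and het of -0.01, and the 19 genes without one 0.004, both on the log2 scale.

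Replication and S phase genes were measured at nearly the same level in cKO as in het. All differences are cKO minus het in log2(signal + 1), and a bracket gives the difference within the first and then within the second title number. Of the 39 genes, 19 were higher and 20 lower in cKO by the mean difference (53.8% of all 11055 tested genes were lower). Their median difference was -0.004 (-0.03 and 0.03), where that of all tested genes was -0.02 (-0.03 and -0.02). The single differences ran from -0.40 (Ccne2) to 0.32 (Rfc1). Within both numbers, 39 of 39 genes differed by less than 0.5, as did 73.1% of all tested genes. In limma without a block, 0 of the 39 passed an adjusted p of 0.05 (0.0% of all genes did), and 0 had an unadjusted p under 0.05 (0.597% of all genes). With the title number as a block, limma again passed 0 of the 39 (0.868% of all genes), and 2, Rfc3 and Ccne2, had an unadjusted p under 0.05 (8.86% of all genes). The lowest adjusted p among the members was 0.99996 without the block and 0.441 with it.

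How large a change these arrays leave room for depends on the fit. With the block the 95% confidence interval of the difference lay within 2-fold of no change for 39 of 39 members (84.5% of all tested genes) and within 1.5-fold for 34 (50.5%). The other 5 were Gins2, Rfc1, Rfc3, Ccne2 and E2f1, and the limits reached -0.82 for E2f1 and 0.67 for Rfc1. Without the block the interval lay within 2-fold for 27 of 39 (46.1% of all genes) and within 1.5-fold for 0 (0.651%), since the difference between the numbers then counts as error. A mean signal over 1000 was seen in 30 of the 39 members and in 4306 of the 11055 tested genes. The median standard error with the block was 0.158 for the members and 0.196 for all tested genes. These shares, and that of differences under 0.5, thus do not compare genes of equal signal. Standard errors below, written after ±, are those of the fit with the block. That fit leaves only 1 residual degree of freedom and leans on a variance estimate pooled over many probe sets, so its intervals can be too narrow for a single gene. A p that misses the threshold does not show that the groups are alike.

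**Figure D1:**
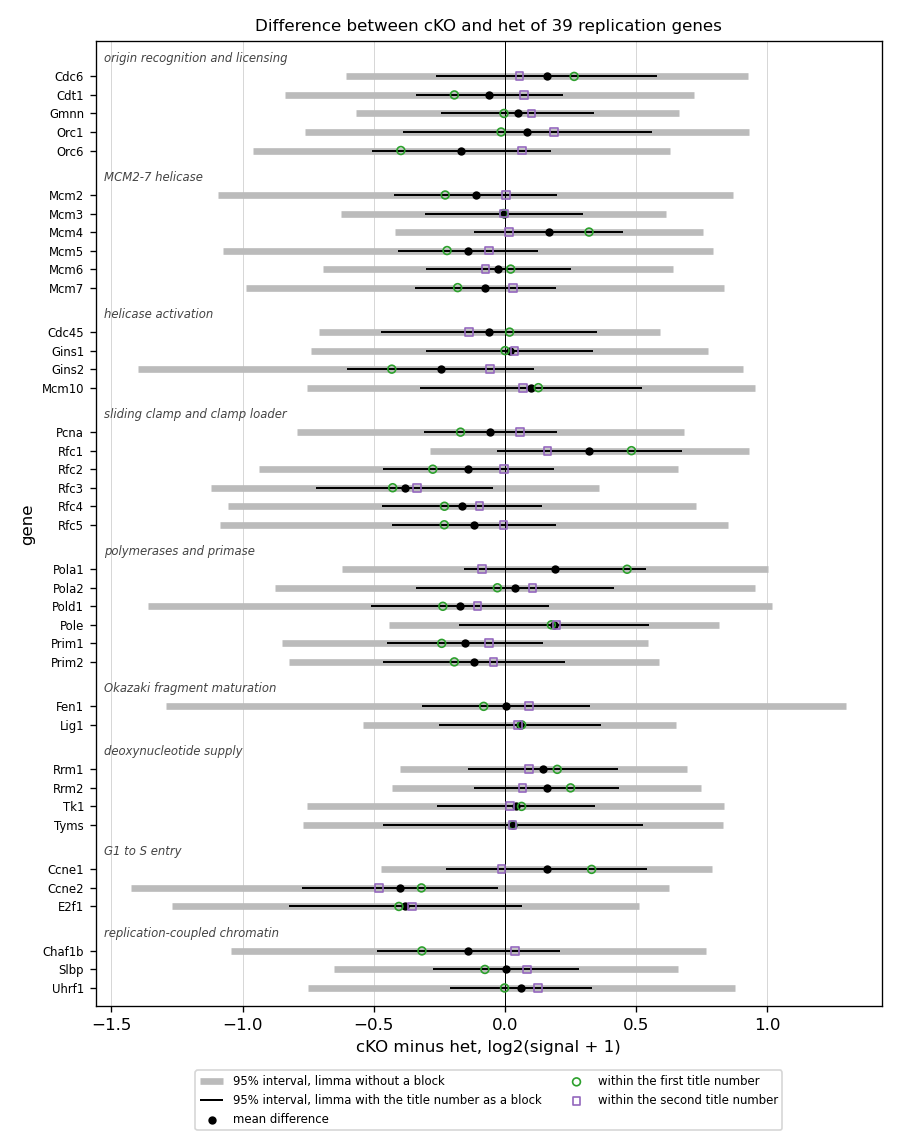
Difference between cKO and het (x axis, log2(signal + 1)) for each of 39 genes (y axis, ordered by role). Black points are the mean difference, thin black bars its 95% interval in limma with the title number as a block, thick grey bars the interval without a block, and open circles and squares the differences within the first and the second title number; the thin bars exclude 0 for Rfc3 and Ccne2 only, and neither passed adjustment.

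Licensing genes showed no common direction. Of 5 (Orc1, Orc6, Cdc6, Cdt1 and Gmnn), 3 were higher and 2 lower, with a median of 0.05 (-0.01 and 0.07). Orc1, a subunit of the origin recognition complex, had signals of 288.8 and 343.8 in het_1210 and het_1261 and of 285.9 and 391.2 in Ko_1210 and KO_1261. Its groups overlapped. Orc6 differed by -0.17 ± 0.17 (-0.40 and 0.06), Cdc6 by 0.16 ± 0.21 (0.26 and 0.06) and Cdt1 by -0.06 ± 0.14 (-0.19 and 0.07). Geminin (Gmnn), the inhibitor of Cdt1, differed by 0.05 ± 0.14 (-0.003 and 0.10).

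The 6 subunits of the MCM helicase ring, which unwinds DNA at the fork, differed by -0.14 to 0.17, with 1 higher and 5 lower in cKO. Mcm2 had signals of 3968 and 2242 in het_1210 and het_1261 and of 3389 and 2249 in Ko_1210 and KO_1261, a difference of -0.11 ± 0.15 (-0.23 and 0.004). For Mcm3 the values were 3863 and 3194 in het against 3850 and 3188 in cKO, a difference of -0.004 ± 0.15. Arrays of one number lay together for both genes, apart from those of the other number, whichever the genotype. Mcm5 followed this pattern, with 14465 and 8798 in het against 12414 and 8440 in cKO (-0.14 ± 0.13). Mcm6 gave 8399 and 6975 in het and 8529 and 6627 in cKO (-0.03 ± 0.14). Mcm7 gave 13767 and 8405 in het and 12152 and 8581 in cKO (-0.08 ± 0.13). The 3 other tested Mcm7 probe sets were lower within both numbers, by 0.16 to 0.28, and the mean over its probe sets was -0.19. Only Mcm4 among the 6 had no overlap on its representing probe set: its signals were 5870 and 6961 in het and 7333 and 7032 in cKO. The difference of 0.17 ± 0.14 came almost wholly from the first number (0.32 and 0.01). Its adjusted p was 0.789 in limma with the block. A second tested Mcm4 probe set had 5192 and 6011 in het and 5863 and 5536 in cKO. There the groups overlapped, at 0.03 ± 0.14 (0.18 and -0.12), so the separation rested on 1 of its 2 probe sets.

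Of the 4 genes that turn the loaded ring into an active helicase, 2 were higher and 2 lower. Gins2, a GINS subunit, differed by -0.24 ± 0.18 (-0.43 and -0.06), and its partner Gins1 by 0.02 ± 0.16. Cdc45 differed by -0.06 ± 0.20 and Mcm10, which helps to activate the helicase, by 0.10 ± 0.21. On the representing probe sets, the cKO and het arrays were apart in none of the 4. A second, dimmer Gins1 probe set had 176.4 and 176.7 in het and 172.5 and 129 in cKO. There the groups did not overlap, at -0.24 ± 0.31 (-0.03 and -0.45). A second, dim Cdc45 probe set gave 0.74 ± 0.53 (1.53 and -0.04), with overlap.

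**Figure D2:**
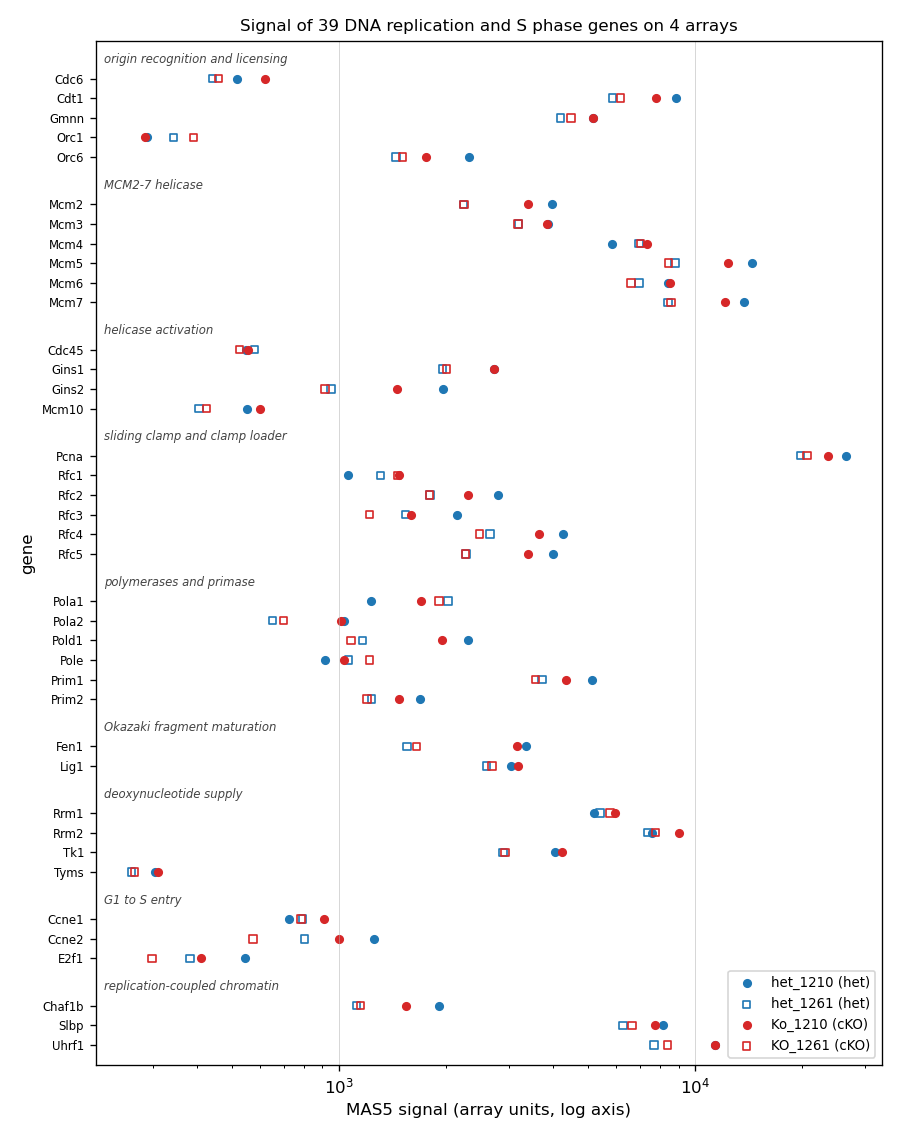
MAS5 signal (x axis, log scale, array units) of the 39 genes (y axis, ordered by role) on each of the 4 arrays: blue is het, red cKO, filled circles the first and open squares the second title number. For 33 of the 39 genes the title numbers lie farther apart than the genotypes; signals of different genes come from different probes and are not to be compared.

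Clamp loader subunits held both the highest and one of the lowest differences. Pcna, the sliding clamp, had signals of 26620 and 19822 in het_1210 and het_1261 and of 23675 and 20642 in Ko_1210 and KO_1261, with overlap and a difference of -0.06 ± 0.12 (-0.17 and 0.06). Rfc1, the large subunit, had 1059 and 1307 in het against 1480 and 1463 in cKO. Both cKO values exceeded both het values, and the difference was 0.32 ± 0.17 (0.48 and 0.16; adjusted p = 0.600 in limma with the block). Its other tested probe sets were higher too, by 0.12 ± 0.18 and 0.54 ± 0.23, and the latter had an unadjusted p of 0.0253 in limma with the block. Rfc3, a small subunit, had 2147 and 1541 in het against 1596 and 1222 in cKO. The groups overlapped slightly, since Ko_1210 lay above het_1261, and the difference was -0.38 ± 0.17 (-0.43 and -0.33; adjusted p = 0.441 in limma with the block). A second Rfc3 probe set gave -0.06 ± 0.17 (-0.28 and 0.15), so the lower value rested on 1 of its 2 probe sets. Rfc2, Rfc4 and Rfc5 differed by -0.14 ± 0.16, -0.16 ± 0.15 and -0.12 ± 0.15.

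Polymerase and primase genes split evenly, with 3 higher and 3 lower in cKO. Pola1, the catalytic subunit of polymerase α, had signals of 1229 and 2028 in het and of 1698 and 1909 in cKO. Only het_1210 was low, and the difference of 0.19 ± 0.17 had opposite signs within the numbers (0.47 and -0.09). Pole, the catalytic subunit of the leading strand polymerase ε, had 913.0 and 1064 in het and 1032 and 1220 in cKO, which overlapped, with a difference of 0.19 ± 0.18 (0.18 and 0.20). Pold1, catalytic in polymerase δ, differed by -0.17 ± 0.17 (-0.24 and -0.10). The primase subunits Prim1 and Prim2 differed by -0.15 ± 0.15 and -0.12 ± 0.17, and Pola2 by 0.04 ± 0.19. A second Prim1 probe set gave -0.32 ± 0.16 (-0.35 and -0.28), with an unadjusted p of 0.0484 and an adjusted p of 0.536 in limma with the block. Fen1 and Lig1, which process and seal Okazaki fragments, differed by 0.005 ± 0.16 and 0.06 ± 0.15.

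The 4 genes of deoxynucleotide supply were slightly higher in cKO within both numbers on their representing probe sets, but none passed the test. Among all 39 members, 11 were higher within both numbers (24.4% of all tested genes) and 12 lower within both (31.6%). Rrm1 and Rrm2 encode the large and small subunits of ribonucleotide reductase, which makes deoxynucleotides. Rrm1 had 5202 and 5421 in het against 5974 and 5782 in cKO, a difference of 0.15 ± 0.14 (0.20 and 0.09). Rrm2 had 7594 and 7396 in het against 9033 and 7748 in cKO, a difference of 0.16 ± 0.14 (0.25 and 0.07). The other tested Rrm2 probe sets gave -0.01 ± 0.17 (-0.17 and 0.16) and 0.06 ± 0.14 (0.12 and -0.01), so neither was higher within both numbers. A second tested Rrm1 probe set had 978.3 and 1947 in het and 1450 and 2048 in cKO, which overlapped, at 0.32 ± 0.17 (0.57 and 0.07). On the representing probe sets neither gene's groups overlapped, though for Rrm2 the values of KO_1261 and het_1210 lay close together. Thymidylate synthase (Tyms) and thymidine kinase (Tk1) differed by 0.03 ± 0.24 and 0.04 ± 0.15. In all, 4 members had both cKO arrays above both het arrays (Mcm4, Rfc1, Rrm1 and Rrm2), or 10.3% against 8.18% of all tested genes. For 0 members were both cKO arrays below both het arrays, against 10.9% of all genes. The membership depends on scaling. Quantile normalization left out Mcm4, with 900 of all tested genes above, against 904 in the main setting. Median centring gave Mcm4, Orc1, Pola1, Pole, Rfc1 and Rrm1, with 1998 of all tested genes above. The mean over all probe sets of a gene gave Mcm10, Rfc1 and, in the other direction, E2f1.

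Genes that drive the entry into S phase held 2 of the 3 lowest differences of the set. Ccne2, cyclin E2, had signals of 1252 and 800.5 in het and of 1004 and 573.5 in cKO, a difference of -0.40 ± 0.18 (-0.32 and -0.48; adjusted p = 0.495 in limma with the block). It was lower within both numbers, but Ko_1210 lay above het_1261. E2f1 had 543.8 and 382.4 in het and 410.7 and 298.9 in cKO, a difference of -0.38 ± 0.22 (-0.40 and -0.35; adjusted p = 0.643). The same pattern held, lower within each number and overlapping across them. A second tested E2f1 probe set differed by -0.31 ± 0.27, with opposite signs within the numbers (-0.81 and 0.20). Ccne1, cyclin E1, had 724.0 and 791.2 in het and 910.8 and 784.3 in cKO. The groups overlapped, the difference was 0.16 ± 0.19 (0.33 and -0.01), and its other probe set gave -0.13 ± 0.19. Among genes of chromatin made behind the fork, the histone chaperone subunit Chaf1b differed by -0.14 ± 0.17. Uhrf1, which guides maintenance of DNA methylation, differed by 0.06 ± 0.13 and Slbp, the histone mRNA stem-loop binding protein, by 0.004 ± 0.14.

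**Figure D3:**
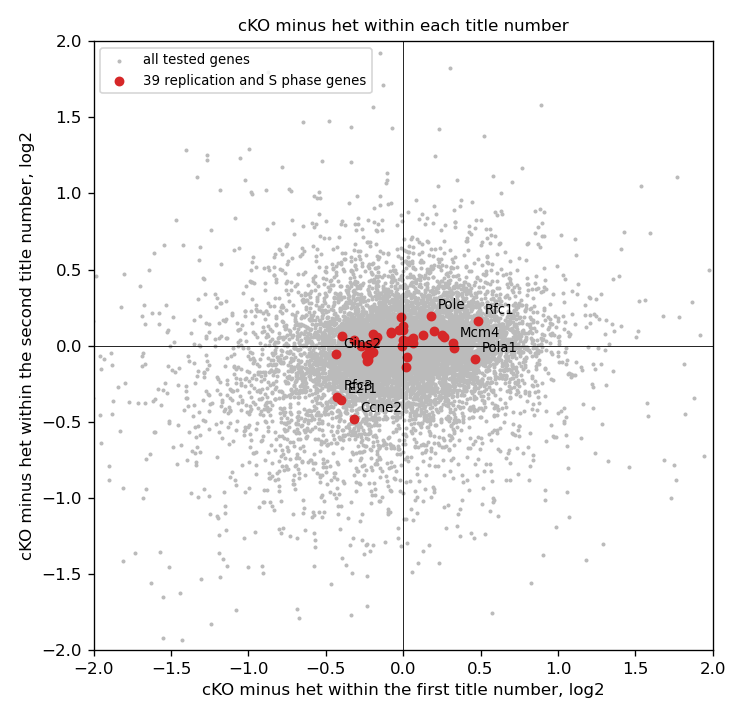
Difference between cKO and het within the first (x axis) and the second (y axis) title number, both in log2(signal + 1), for the 39 genes (red) over all 11055 tested genes (grey; 74 lie outside the axes). Every red point lies within 0.5 of 0 on both axes, and Rfc3, Ccne2 and E2f1 are the members lowest within the second number.

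The title numbers separated these genes more than the genotypes did. The difference between the numbers exceeded that between cKO and het for 33 of 39 members (74.0% of all tested genes). In both groups 31 members were lower in the second than in the first number (79.5%, against 47.7% of all tested genes) and 3, Orc1, Pola1 and Pole, were higher (29.8% of all genes). Among genes with a mean signal over 1000, as in most members, 25 of 30 members (83.3%) and 53.9% of 4306 genes were lower in both groups. The median difference of the members, second minus first number, was -0.47 in het and -0.36 in cKO, against -0.13 and -0.13 for all tested genes. Fen1 showed the largest on the representing probe sets, with 3355 and 3172 in het_1210 and Ko_1210 against 1553 and 1654 in het_1261 and KO_1261 (-1.11 in het and -0.94 in cKO). The other tested Fen1 probe set gave -0.62 and -0.64. Pold1 followed at -0.98 and -0.85 (-0.62 and -0.71 on its other tested probe set). The representing probe set of Rrm1, at 0.06 and -0.05, hardly differed between the numbers, but its other tested probe set gave 0.99 and 0.50. Spike-in poly-A transcripts, added to the RNA ahead of labelling, were 2.43-fold (het) and 2.54-fold (cKO) higher in the first number, over 24 probe sets. The hybridization spike-in controls were higher there too, by 1.90-fold (het) and 1.73-fold (cKO) over 18 probe sets. Both kinds of control also read lower in cKO than in het within each number. The cKO to het ratio of the poly-A transcripts was 0.90 in the first number and 0.86 in the second. The hybridization controls had ratios of 0.81 and 0.88. The inactive X transcript Xist also separated the numbers, at 62.6 and 115.4 on het_1210 and Ko_1210 against 14338 and 22802 on het_1261 and KO_1261. The Y-linked gene Eif2s3y did not follow the number: its signals were 1485, 833.9 and 1386 on het_1210, het_1261 and Ko_1210 and 3.01 on KO_1261. Thus het_1261 showed both transcripts, and the arrays of the second number also differed by genotype in Eif2s3y. The part of these differences in the replication gene values was not tested, and each number holds only 1 array per group.

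**Figure D4:**
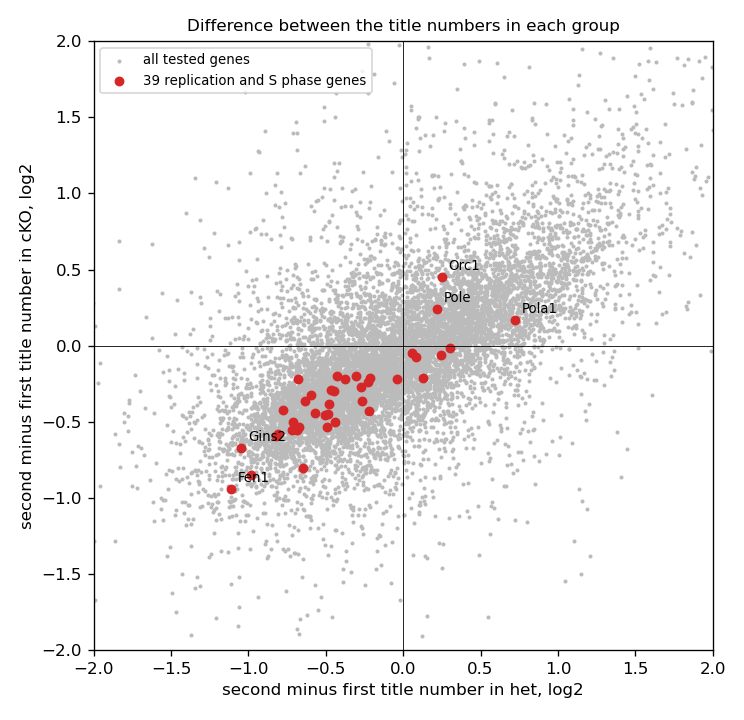
Difference between the second and the first title number in het (x axis) and in cKO (y axis), in log2(signal + 1), for the 39 genes (red) over all 11055 tested genes (grey; 172 lie outside the axes). Of the 39 red points, 31 lie in the lower left quadrant, that is, lower in the second number in both groups.

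Other genes of the same pathways gave 0 calls as well. Of 34 further replication genes 33 were tested, and 0 passed in limma without or with the block, with 22 higher and 11 lower in cKO (53.8% of all tested genes were lower). Their median was 0.07 (0.02 and 0.05). In 8 of the 33 both cKO arrays lay above both het arrays (8.18% of all tested genes), and in 0 both lay below (10.9%). Topbp1, which helps to fire origins and to signal replication stress, had 2677 and 4651 in het and 4661 and 5131 in cKO. The lowest cKO value barely exceeded the highest het value, and the difference was 0.47 ± 0.16 (0.80 and 0.14; adjusted p = 0.198 in limma with the block). Omitting het_1210 took the Topbp1 difference to 0.072. Ticrr, an origin firing factor, had 359.0 and 612.4 in het and 458.3 and 803.3 in cKO, which overlapped, at 0.37 ± 0.20. Orc4, an origin recognition subunit, had 1449 and 1133 in het and 1137 and 1031 in cKO, at -0.24 ± 0.18. Mcm9 had 290.6 and 376.1 in het and 223.1 and 378.9 in cKO, at -0.18 ± 0.24. The last 2 were the lowest of the list, and their groups overlapped.

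Of 25 tested genes that control the step from G1 to S, 16 were higher and 9 lower, with a median of 0.14 (0.11 and -0.01), and 0 passed in limma without or with the block. Ccnd2, cyclin D2, had 16673 and 18338 in het and 25844 and 22479 in cKO, with no overlap. Its difference was 0.46 ± 0.13 (0.63 and 0.29), and the adjusted p was 0.99996 in limma without the block and 0.0793 with it. With the block, it passed after median centring (adjusted p = 0.0448) and after quantile normalization (3.55e-07), the latter chosen after the data were seen. It did not pass with the block and a robust prior (0.0819) or no variance trend (0.749). The CDK inhibitor gene Cdkn2b had 187.6 and 186.8 in het and 73.1 and 113.9 in cKO, also without overlap, close to the filter and at -1.03 ± 0.35 (adjusted p = 0.235 with the block in limma). Cdkn1a, which encodes the inhibitor p21, had 2221 and 3895 in het and 1083 and 3858 in cKO. Both arrays of the first number were lower than those of the second, and Ko_1210 was the lowest. Nearly all of the difference of -0.52 ± 0.18 lay within the first number (-1.04 and -0.01). E2f4 had 78.0 and 54.4 in het and 82.6 and 106.5 in cKO, near the filter and without overlap, at 0.52 ± 0.48.

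For the sorted cells themselves, the label was checked on markers of the basal layer: Krt5 had signals of 35314 to 57958 over the 4 arrays and Krt14 of 35520 to 59598, and 0 of 7 basal markers passed. The summed signal of the 7 was 198210 and 145220 in het and 185400 and 139920 in cKO. Krt10, a suprabasal keratin, was bright too, at 24854 to 58187, so these signals do not show that only basal cells were sorted. Srf was 833.9 and 1108 in het and 47.9 and 80.4 in cKO. Of 6 markers of suprabasal keratinocytes, cells that have left the cycle, 4 were lower and 2 higher in cKO. In limma 0 of the 6 passed without the block and Krt1, Krt10 and Sbsn fell with it. Lor differed by 0.47 (1.68 and -0.75) and Ivl by 0.48 (1.75 and -0.78), with opposite signs within the numbers. The summed signal of the 6 was 142890 and 90443 in het against 89857 and 71899 in cKO. Of 8 dermal fibroblast markers 6 were lower, 0 passed without the block and 3 fell with it (summed signal 46478 and 39253 in het, 34678 and 36063 in cKO). With the block, 0.868% of all tested genes passed, and 0 genes, these markers included, passed when the variance trend was left out. The summed signals of 7 melanocyte, 6 immune and 6 endothelial markers were between 286.2 and 1314, with 0, 1 and 0 calls with the block. Of these markers 4 melanocyte, 2 immune and 4 endothelial ones passed the filter, and all of them were lower in cKO by the mean difference. Among all tested genes 53.8% were lower. Ptprc, Mlana and Pecam1, markers of these cells, were among those below the filter on average. The part of these cells in the replication gene values was not tested, and fewer dividing cells cannot be told apart from less RNA per cell in such bulk samples.

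Several probe sets read most of these genes, and most of the tested ones shared the sign of the representing probe set. The 39 genes had 88 probe sets, of which 73 were tested, and 0 of the 73 passed in limma without or with the block. With the block, 4 of the 73 had an unadjusted p under 0.05. Among all tested genes, each on its representing probe set, 0.868% passed with the block and 8.86% had an unadjusted p under 0.05. Of the 34 tested probe sets beside the representing ones, 24 had the sign of the latter and 10 the opposite sign. The share of matching signs among other genes was not counted. The opposite signs included Mcm5, at 0.39 ± 0.30 on a dim probe set, and Mcm3, at 0.23 ± 0.23 and 0.07 ± 0.16. None of the 10 differed from 0 by an unadjusted p under 0.05 in limma with the block.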

How the data were processed

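Trizol was used for the extraction and a 3' IVT kit for the biotin label, per the labels' protocols. The authors deposited linear array intensity, with 1 value for each probe set of an array, computed with MAS5 according to the submitters' processing notes. No MAS5 version is recorded in these notes. With 2% of probe sets trimmed at each end, the deposited intensity averaged 500.0 on all 4 arrays, so only changes relative to that mean are seen. Of 45101 probe sets 64 controls were left out. Gene symbols came from the platform annotation, updated by Entrez identifier: 34945 probe sets had 1 symbol (34741 matched), 932 several and 9160 none. Values were transformed as log2(signal + 1), which understates changes of low genes. The 22518 probe sets with a mean signal above 65.9 were tested two-sided in limma 3.58.1 (R 4.3.3; lmFit, then eBayes with trend), and p-values were adjusted over all of them (Benjamini-Hochberg); they represent 11055 genes. The fit had 2 residual and 3.01 prior degrees of freedom. The same fit with the title number as a block had 1 and 34.4. Same-numbered arrays deviated from their group means together (correlation 0.755 over probe sets), and the spike-in controls differed between the numbers, so the number was treated as a batch holding both groups; with 2 pairs and no label it is not shown to pair animals. The pipeline was tested on simulated data. Python 3.11.15 and matplotlib 3.10.9 drew the figures.

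The members and the gene lists were chosen with earlier results of these data known. Values per array were given for members called in either fit, members whose groups do not overlap, the 3 largest differences each way, the MCM ring, Pcna, E2f1 and Ccne1, and from the 2 further lists for called genes and the 2 largest differences each way; the other members, and other genes quoted, are given by difference only. Fen1, Pold1, Orc1, Orc6, Gins2 and the marker genes fall outside that rule and were named after their values were seen. The alternatives were another pseudocount, no filter, other scalings, other variance priors, the block, the mean over probe sets and leaving out each array.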

Additional observations from a re-analysis of the deposited data

How the results depend on the processing

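The number of arrays, 2 per group, limits the precision, and MAS5 signals near the filter are imprecise. The count of replication genes that passed was 0 under every alternative run: a pseudocount of 16, no filter, quantile normalization, median centring, no variance trend, the replicate block (also with a robust prior, no trend, median centring or, added after the data were seen, quantile normalization), the mean over probe sets and leaving out each array. The block raised the calls over all genes from 0 to 96 (50 with a robust prior, 52 with median centring, 150 with quantile normalization and 0 with no variance trend), and changed no call of a member.

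The median of the members moved to 0.12 under median centring, with and without the block, where that of all tested genes moved from -0.02 to 0.10. With 1 array left out, the numbers are unbalanced between the groups: the members' median ranged from -0.22 (without het_1261) to 0.18 (without het_1210), with -0.21 without Ko_1210 and 0.14 without KO_1261, and no member passed. The count of members whose groups do not overlap was 4, 3 with quantile normalization, 6 with median centring and 3 with the mean over probe sets.

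Some small differences changed sign. Under median centring, with and without the block, Mcm2 became 0.010, Mcm3 0.12, Mcm6 0.096, Mcm7 0.047 and Pcna 0.067. Pcna was 0.037 under quantile normalization, with and without the block. With the mean over probe sets Mcm5 became 0.011, Pola1 -0.057 and Ticrr -0.24. With each array left out in turn the ranges were -0.52 to 0.30 for Mcm2, -0.14 to 0.13 for Mcm3, -0.50 to 0.22 for Mcm5, -0.21 to 0.16 for Mcm6, -0.43 to 0.28 for Mcm7, -0.27 to 0.16 for Pcna, -0.17 to 0.55 for Pola1, -0.80 to 0.0041 for Ccne2, -0.57 to 0.20 for Mcm9, -0.033 to 0.78 for Ticrr and -1.44 to 0.39 for Cdkn1a. Other named genes kept their sign but moved by more than 1.5 times, among them Topbp1 (0.072 to 0.87), Rfc3 (-0.62 to -0.14), E2f1 (-0.63 to -0.13) and Rfc1 (0.17 to 0.47). Median centring shifts the difference of every gene by the same amount, which turned these small negative differences positive. For the other sign changes, the cause beyond the unbalanced numbers was not tested.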

Other observations

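Probe sets of the same gene could differ in how they separated the title numbers. The representing probe set of Slbp was lower in the second number in both groups (-0.38 in het and -0.22 in cKO). A second, dimmer Slbp probe set had signals of 91.1 and 118.0 on het_1210 and Ko_1210 against 461.8 and 587.5 on het_1261 and KO_1261, that is, higher in the second number by 2.33 in het and 2.31 in cKO. For Orc1, the dimmer probe set was higher in the second number by 1.32 and 2.17, and the representing one by 0.25 and 0.45. Of 34 tested probe sets beside the representing ones, 3 had the opposite sign between the numbers. Neither dim probe set passed between cKO and het in limma with the block (adjusted p = 0.752 for Slbp and 0.992 for Orc1).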
